A study of Mus musculus with 10 samples.

Results

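Lysosomes are acidic organelles in which proteases, sugar-cleaving and lipid-cleaving enzymes break down material delivered by endocytosis and autophagy. The set described here holds 43 lysosomal genes, chosen by name from the 22198 genes of an FPKM table (fragments per kilobase of transcript, scaled to library size). They were grouped by role into 13 proteases, 14 glycosidases and sulfatases, 6 lipid hydrolases and activators, 8 membrane proteins, and the pair Grn and Tfeb. The RNA came from brain cortex of untreated 6-month-old mice, with 5 libraries labelled ctrl, whose genotype was wild type for Mic19, and 5 labelled BKO, whose genotype was Mic19 knockout. Mic19, encoded by Chchd3, is a subunit of the complex that shapes the cristae of mitochondria. The labels give no strain, sex, Cre driver or cell type for the knockout, and leave unsaid whether any mouse gave more than 1 library. The p-values therefore measure only the spread between these libraries, which may be technical.

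Cathepsins, the main lysosomal proteases, are made as inactive precursors that mature in the acidic lumen. Some of them, such as cathepsin S, are abundant in microglia, the resident macrophages of the brain, where they also trim antigens for presentation. Defects of many lysosomal enzymes cause storage diseases that damage neurons, and the transcription factor TFEB raises the transcription of many lysosomal genes through a short palindromic promoter element known as the CLEAR motif.

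Chchd3, the gene named as knocked out, had no lower level in BKO. It stood at 73.07, 77.26, 80.60, 78.99 and 82.25 FPKM in ctrl libraries 1 to 5 and at 94.17, 89.43, 88.26, 81.48 and 87.72 FPKM in BKO libraries 1 to 5 (exact permutation test, 2-sided, p = 0.0159; limma log2 difference 0.17, adjusted p = 0.0528). It passed as higher in BKO without ctrl 5 (limma adjusted p = 0.0403) or without BKO 4 (limma adjusted p = 0.0288). A value for the gene as a whole cannot show whether an exon was lost, and each direction below is that of the libraries as labelled. Choroid plexus RNA split the libraries across both groups. Ttr, the main transcript of that tissue, lay between 38.9 and 89.9 FPKM in ctrl 2, ctrl 4, BKO 3 and BKO 4 and between 1098 and 2720 FPKM in the other 6 libraries. Neuronal and astrocytic markers were present in every library. Read depth is unknown, and FPKM sums ran from 730340 to 766786 over the libraries.

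Promoter sequences are shown for the members with the CLEAR core or a myeloid-type element in the 250 bases before the start, so that the values that follow can be read against them. In RefSeq promoter windows of GRCm38.p6, from 250 bases before to 50 bases after each start, 39 of the 43 members had an entry. Ctsb, Ctsh, Galns and Asah1 had none. The CLEAR core TCACGTGA, its own reverse complement, lay in 4 of 44 member windows (9.09%) against 0.974% of all 32851 windows. Those windows belonged to Ctsa, Ctsd, Gla and Mcoln1. Its inner hexamer CACGTG, which every CLEAR core contains, lay in 12 of 44 member windows (27.3%) against 7.15% of all windows. GAGGAAGT, a form of the site bound by the myeloid transcription factor PU.1, was searched on both strands and lay in 4 of 44 member windows (9.09%) against 3.20% of all. They belonged to Ctsc, Ctss, Gla and Gusb, and in Ctss and Gusb the match reached past the start, outside the stretches printed. The stretches below run 5′ to 3′ on the gene's strand and end at the last base before the start. Capitals mark TCACGTGA and ACTTCCTC, the reverse complement of GAGGAAGT.
Ctsd, chr7:142387828-142388077, minus strand: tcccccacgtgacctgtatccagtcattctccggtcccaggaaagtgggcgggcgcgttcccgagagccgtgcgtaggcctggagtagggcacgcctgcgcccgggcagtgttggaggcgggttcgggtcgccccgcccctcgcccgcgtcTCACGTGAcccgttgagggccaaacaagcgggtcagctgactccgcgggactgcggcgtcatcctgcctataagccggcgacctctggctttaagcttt
Mcoln1, chr8:3500269-3500518, plus strand: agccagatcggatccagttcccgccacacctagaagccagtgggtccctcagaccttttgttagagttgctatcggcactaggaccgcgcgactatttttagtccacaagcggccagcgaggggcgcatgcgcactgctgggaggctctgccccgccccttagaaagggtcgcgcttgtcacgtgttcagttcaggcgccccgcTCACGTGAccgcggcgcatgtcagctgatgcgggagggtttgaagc
Gla, chrX:134601006-134601255, minus strand: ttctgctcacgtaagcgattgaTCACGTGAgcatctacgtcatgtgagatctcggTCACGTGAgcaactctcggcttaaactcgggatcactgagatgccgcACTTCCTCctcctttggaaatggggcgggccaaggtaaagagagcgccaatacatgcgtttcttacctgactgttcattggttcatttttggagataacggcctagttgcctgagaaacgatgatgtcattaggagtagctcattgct
Ctsa, chr2:164833734-164833772, plus strand: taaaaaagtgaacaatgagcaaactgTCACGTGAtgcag
Ctsc, chr7:88277835-88278084, plus strand: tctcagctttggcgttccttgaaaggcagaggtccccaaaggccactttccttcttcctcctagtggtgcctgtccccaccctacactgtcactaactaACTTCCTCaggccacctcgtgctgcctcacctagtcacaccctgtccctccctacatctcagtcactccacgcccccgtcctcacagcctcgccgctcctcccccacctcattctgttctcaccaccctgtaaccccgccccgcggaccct
The core ends 92 bases before the start in Ctsd, 39 in Mcoln1 and 6 in Ctsa, and Gla holds 2 copies. A match of letters is a description and does not show binding.

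In the cortex labelled BKO, 10 of the 43 lysosomal genes rose and none fell. The risers were 5 cathepsins (Ctsc, Ctsd, Ctsh, Ctss and Ctsz), lysozyme (Lyz2), the ganglioside-cleaving subunit Hexa, the acid ceramidase Asah1 and the membrane proteins Cd63 and Cd68. Their increases were small, between 1.14-fold and 1.69-fold, and the 33 other genes did not pass. In bulk tissue, a change in the number of cells of a type and a change in RNA per cell cannot be told apart. All 43 members passed the filter on low values (at least 0.5 FPKM in at least 5 libraries), as did 14447 genes in all. A gene is said to have risen or fallen when its limma p, adjusted by Benjamini-Hochberg over all genes tested, was under 0.05, and differences are of log2(FPKM + 0.5), so that changes of low genes are understated. Over all genes tested 5.79% passed, 3.32% rising and 2.46% falling. The median log2 difference was 0.07 over the members, where it was 0.00 over all genes tested, and 32 members had a positive difference. By class, 5 of 13 proteases rose (median 0.13), 2 of 14 glycosidases and sulfatases (median 0.06), 1 of 6 lipid hydrolases and activators (median 0.05) and 2 of 8 membrane proteins (median 0.07), and neither Grn nor Tfeb passed. The differences between classes were not tested. For 7 members the lowest BKO library exceeded the highest ctrl library, against 3.62% of all genes, and for no member was every BKO library below ctrl, against 3.09% of all genes.

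**Figure D1:**
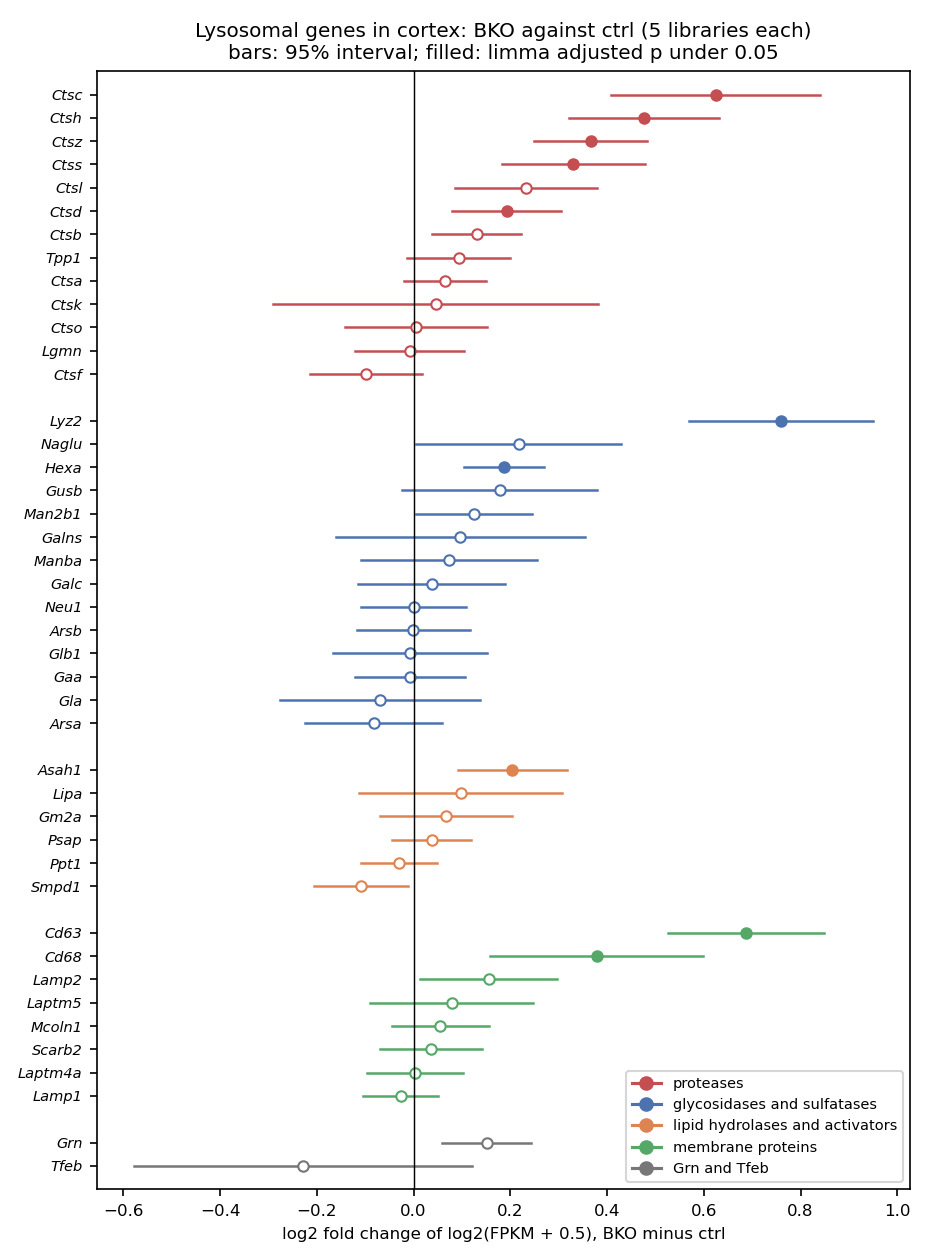
Log2 fold change of log2(FPKM + 0.5), BKO minus ctrl, for the 43 lysosomal genes by class, with 95% intervals from limma (n = 5 libraries a group) and filled points for an adjusted p under 0.05. The 10 filled points lie between 0.19 and 0.76, all to the right of 0, and most open points lie close to 0.

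Among the proteases, Ctsc, Ctsh, Ctsz and Ctss had the largest differences. Ctsc, the dipeptidyl peptidase that activates granule serine proteases, stood at 4.55, 3.88, 5.57, 4.57 and 4.28 FPKM in ctrl libraries 1 to 5 and at 7.89, 7.83, 6.50, 7.71 and 6.56 FPKM in BKO libraries 1 to 5. Every BKO library was above every ctrl library, and the gene rose by 0.62 (SE 0.101, limma adjusted p = 0.00112). The ctrl mean was 4.57 ± 0.625 FPKM and the BKO mean 7.30 ± 0.704 FPKM (SD, n = 5 libraries). Ctsh, an aminopeptidase, stood at 9.12, 8.64, 9.47, 9.07 and 8.35 FPKM in ctrl libraries 1 to 5 and at 14.57, 12.16, 12.19, 11.73 and 12.59 FPKM in BKO libraries 1 to 5. Again the groups did not overlap, with BKO 1 highest, and the gene rose by 0.48 (SE 0.0723, limma adjusted p = 0.000651).

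Ctsz, a carboxypeptidase also called cathepsin X, stood at 47.71, 43.79, 42.46, 50.95 and 50.77 FPKM in ctrl libraries 1 to 5 and at 62.49, 60.86, 60.15, 60.40 and 59.90 FPKM in BKO libraries 1 to 5. The BKO libraries were tightly grouped (SD 1.03 FPKM) and all above ctrl, and the gene rose by 0.37 (SE 0.0545, limma adjusted p = 0.00054). Ctss, an endopeptidase that stays active at neutral pH and trims the invariant chain, stood at 77.63, 68.47, 79.13, 89.92 and 85.72 FPKM in ctrl libraries 1 to 5 and at 102.65, 105.19, 89.08, 103.70 and 102.80 FPKM in BKO libraries 1 to 5. BKO 3 fell within the ctrl range and the other 4 BKO libraries above it, and the gene rose by 0.33 (SE 0.0688, limma adjusted p = 0.00862).

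Ctsd, the aspartic protease of the lysosome, which ranked 266 by level among the genes tested, stood at 364.69, 318.56, 352.03, 355.68 and 352.85 FPKM in ctrl libraries 1 to 5 and at 418.84, 429.97, 359.13, 387.28 and 399.30 FPKM in BKO libraries 1 to 5. The groups overlapped through BKO 3, which lay inside the ctrl range, and ctrl 2 was the lowest library. Its rise was 0.19 (SE 0.0525, limma adjusted p = 0.0457), and the call was lost when any library except BKO 3 was left out (limma adjusted p = 0.0516 to 0.114).

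Of the 8 proteases that did not pass, Ctsl came nearest. Ctsl, a broad endopeptidase, stood at 90.41, 93.77, 114.67, 107.85 and 114.41 FPKM in ctrl libraries 1 to 5 and at 127.35, 128.56, 119.59, 122.57 and 112.03 FPKM in BKO libraries 1 to 5, a difference of 0.23 (SE 0.0686, limma adjusted p = 0.0684). BKO 5 lay inside the ctrl range, and the gene passed without ctrl 3 or ctrl 5 (limma adjusted p = 0.0466 and 0.0357). Ctsb, the most abundant protease of the set, stood at 450.49, 406.74, 430.69, 447.96 and 453.21 FPKM in ctrl libraries 1 to 5 and at 496.82, 446.92, 481.02, 494.03 and 477.82 FPKM in BKO libraries 1 to 5. Its difference was 0.13 (SE 0.0432, limma adjusted p = 0.105), it passed without BKO 2 (limma adjusted p = 0.0450), and BKO 2 was the lone BKO library inside the ctrl range.

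The other uncalled proteases included the serine peptidases Ctsa (carboxypeptidase and protective partner of beta-galactosidase) and Tpp1 (tripeptidyl peptidase), with differences of 0.06 and 0.09. Lgmn, the asparaginyl endopeptidase that processes cathepsins, ran from 127.66 to 143.92 FPKM in ctrl and from 123.47 to 151.23 FPKM in BKO, a difference of -0.01 with a 95% interval of -0.121 to 0.105. Ctso stood at 21.6 FPKM in both groups on average. Ctsf had a negative difference of -0.10 (95% interval -0.214 to 0.017). Ctsk, best known from bone-resorbing osteoclasts, was the least abundant member and the least certain protease, at 3.14 to 5.88 FPKM over all libraries (95% interval -0.291 to 0.382). Its difference was 0.54 within the 4 libraries of low Ttr and -0.29 within the 6 of high Ttr.

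**Figure D2:**
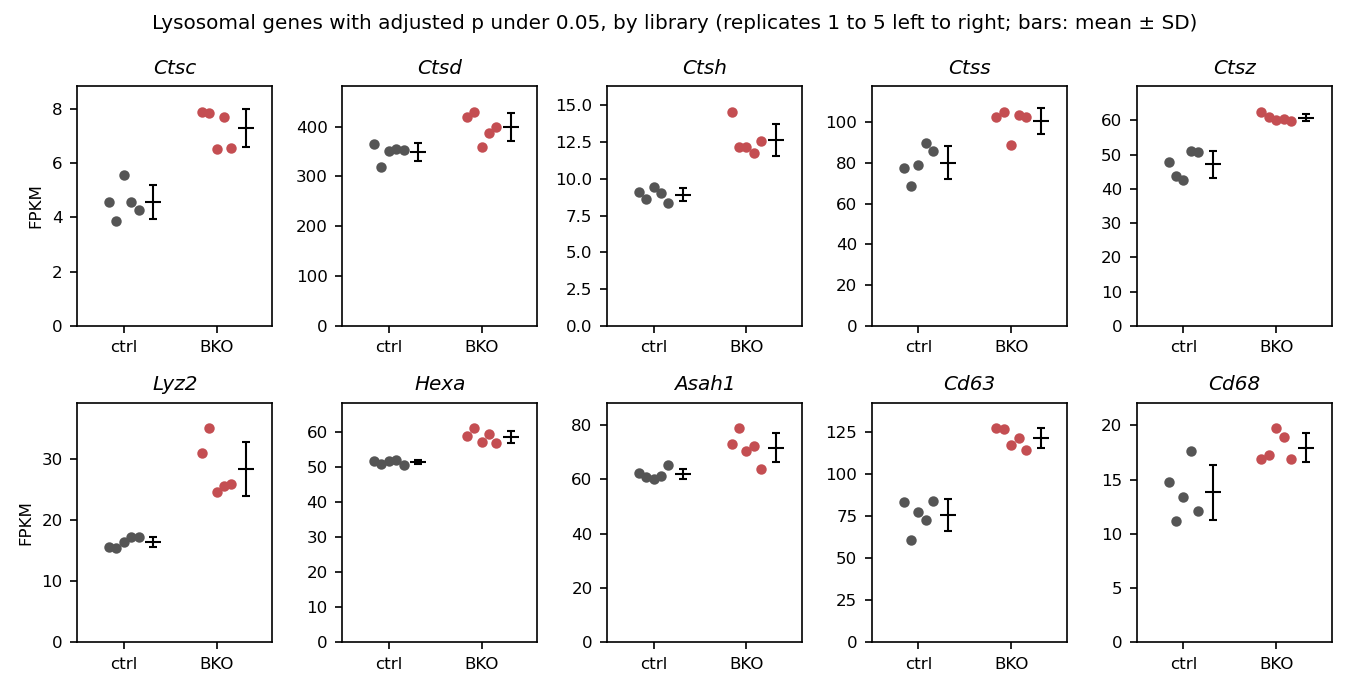
FPKM in each library (points, replicates 1 to 5 from left to right) for the 10 lysosomal genes that passed, with mean ± SD (n = 5) beside each group and the axis starting at 0. The BKO points lie above all ctrl points for Ctsc, Ctsh, Ctsz, Lyz2, Hexa and Cd63, and the groups overlap for Ctsd, Ctss, Asah1 and Cd68.

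Sugar-cleaving enzymes and sulfatases mostly stood at like levels in both groups, with Lyz2 and Hexa as the genes that passed. Lyz2, which encodes the lysozyme of macrophages, stood at 15.65, 15.46, 16.48, 17.28 and 17.28 FPKM in ctrl libraries 1 to 5 and at 30.95, 35.06, 24.62, 25.54 and 25.87 FPKM in BKO libraries 1 to 5. Groups did not overlap, BKO 1 and BKO 2 were highest, and the gene rose by 0.76 (SE 0.0887, limma adjusted p = 5.8e-05), the largest log2 increase among the 43. Its near-identical neighbour Lyz1 stood at 0.28 FPKM or less in every library, but how the authors divided shared reads is not given in the sources used here. Hexa, the alpha subunit of the hexosaminidase that degrades GM2 ganglioside, stood at 51.84, 51.03, 51.81, 52.10 and 50.70 FPKM in ctrl libraries 1 to 5 and at 58.95, 61.17, 57.14, 59.43 and 56.86 FPKM in BKO libraries 1 to 5. Its ctrl libraries varied by 1.16% (coefficient of variation), the least of any member, and a rise of 0.19 (SE 0.0388, limma adjusted p = 0.00834) separated the groups without overlap.

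Of the remaining glycosidases, Man2b1, the alpha-mannosidase, had the smallest p. It stood at 22.44, 23.49, 21.36, 23.68 and 22.49 FPKM in ctrl libraries 1 to 5 and at 23.56, 25.44, 23.03, 25.37 and 26.65 FPKM in BKO libraries 1 to 5, a difference of 0.13 (SE 0.0555, limma adjusted p = 0.256), with overlapping groups. Gaa, the acid alpha-glucosidase that degrades glycogen, was the most abundant of the class. It stood at 150.77, 148.81, 152.45, 157.07 and 167.43 FPKM in ctrl libraries 1 to 5 and at 144.35, 171.76, 149.08, 146.22 and 162.21 FPKM in BKO libraries 1 to 5, a difference of -0.01 with a 95% interval of -0.121 to 0.107.

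Naglu, which acts on heparan sulfate, and the beta-glucuronidase Gusb had differences of 0.22 (limma adjusted p = 0.270) and 0.18 (limma adjusted p = 0.358). The sialidase Neu1, the beta-galactosidase Glb1, the beta-mannosidase Manba and the alpha-galactosidase Gla lay between -0.07 and 0.07. Galc, which degrades the myelin lipid galactosylceramide, ran from 13.42 to 16.37 FPKM in ctrl and from 14.75 to 17.33 FPKM in BKO, a difference of 0.04 (95% interval -0.114 to 0.189). The sulfatases Arsa, Arsb and Galns had differences of -0.08, 0.00 and 0.10, and none passed (limma adjusted p = 0.585, 0.998 and 0.752). Arsa, whose substrate sulfatide is also a myelin lipid, ran from 21.93 to 25.82 FPKM in ctrl and from 19.85 to 23.88 FPKM in BKO.

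Of the lipid hydrolases and their activators, Asah1 passed. Asah1, which cleaves ceramide, stood at 62.41, 60.79, 60.06, 61.20 and 65.04 FPKM in ctrl libraries 1 to 5 and at 73.02, 78.69, 70.17, 72 and 63.69 FPKM in BKO libraries 1 to 5. BKO 5 lay inside the ctrl range and the other 4 BKO libraries above it. It rose by 0.20 (SE 0.0527, limma adjusted p = 0.0341), a call that held on leaving out ctrl 5 or BKO 5 but on leaving out no other single library (limma adjusted p = 0.0597 to 0.0905). Smpd1, the acid sphingomyelinase that produces ceramide, had the smallest p of the others. It stood at 90.54, 88.95, 88.03, 86.44 and 89.36 FPKM in ctrl libraries 1 to 5 and at 87.31, 77.47, 76.80, 83.25 and 86.94 FPKM in BKO libraries 1 to 5, a difference of -0.11 (SE 0.0453, limma adjusted p = 0.224). BKO 1 and BKO 5 lay inside the ctrl range and the other BKO libraries below it.

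Psap encodes prosaposin, the precursor of the saposins that present sphingolipids to their hydrolases, and ranked 39 among the genes tested. It stood at 1039.83, 1072.88, 1032.71, 1072.30 and 993.10 FPKM in ctrl libraries 1 to 5 and at 1078.14, 1055.23, 1032.42, 1090.76 and 1091.07 FPKM in BKO libraries 1 to 5. The groups overlapped, and the difference was 0.04 (95% interval -0.044 to 0.119). Gm2a, the activator that presents GM2 to the hexosaminidase holding Hexa, had a difference of 0.07, Lipa, the acid lipase for cholesteryl esters, 0.10, and Ppt1, a thioesterase that removes palmitate from proteins, -0.03 (limma adjusted p = 0.663, 0.679 and 0.739).

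Among the membrane proteins, the tetraspanin Cd63 and the macrophage glycoprotein Cd68 rose, whereas the differences of the 6 others lay between -0.03 and 0.16 and none passed. Cd63, a marker of late endosomes and of the vesicles they release, stood at 83.54, 60.73, 77.46, 72.96 and 83.73 FPKM in ctrl libraries 1 to 5 and at 127.22, 126.89, 117.38, 121.19 and 114.39 FPKM in BKO libraries 1 to 5. The groups stood well apart, with the lowest BKO library at 114.39 and the highest ctrl library at 83.73 FPKM, and the gene rose by 0.69 (SE 0.0754, limma adjusted p = 3.31e-05), the smallest p of any member. Cd68 stood at 14.78, 11.22, 13.44, 17.66 and 12.11 FPKM in ctrl libraries 1 to 5 and at 16.87, 17.26, 19.75, 18.98 and 16.93 FPKM in BKO libraries 1 to 5. Ctrl 4 lay inside the BKO range. The rise was 0.38 (SE 0.103, limma adjusted p = 0.0439), and the call was lost when any library except ctrl 4 was left out (limma adjusted p = 0.0526 to 0.109).

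Lamp1 and Lamp2 encode the main glycoproteins of the lysosomal membrane. Lamp1 stood at 341.41, 373.02, 352.26, 368.43 and 351.29 FPKM in ctrl libraries 1 to 5 and at 355.91, 355.87, 343.66, 349.67 and 347.97 FPKM in BKO libraries 1 to 5, a difference of -0.03 with a 95% interval of -0.104 to 0.051. Lamp2 stood at 56.83, 50.69, 61.01, 48.20 and 56.11 FPKM in ctrl libraries 1 to 5 and at 66.68, 59.97, 56.07, 58.37 and 62.64 FPKM in BKO libraries 1 to 5, a difference of 0.16 (SE 0.066, limma adjusted p = 0.228), with overlapping groups. The remaining members were Scarb2, the receptor that carries glucocerebrosidase to the lysosome (0.04), the calcium channel Mcoln1 (0.06), Laptm4a (0.00) and its blood-cell relative Laptm5 (0.08), none of which passed.

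Grn encodes progranulin, a secreted precursor whose fragments act in the lysosome. It stood at 40.71, 40.26, 42.12, 42.21 and 41.69 FPKM in ctrl libraries 1 to 5 and at 44.90, 48.90, 44.52, 46.67 and 45.20 FPKM in BKO libraries 1 to 5. No ctrl library reached the lowest BKO library, but the difference of 0.15 (SE 0.0427) did not pass (limma adjusted p = 0.0553). Grn passed when low genes were kept in (limma adjusted p = 0.0364) and when libraries were scaled to 1 common FPKM sum (limma adjusted p = 0.0426). Tfeb itself ran from 5.25 to 7.0 FPKM in ctrl and from 3.08 to 6.95 FPKM in BKO, with BKO 5 lowest, a difference of -0.23 whose 95% interval was -0.578 to 0.120.

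The members that carry the CLEAR core did not pass, except Ctsd. Ctsa, Gla and Mcoln1 had differences of 0.06, -0.07 and 0.06. Of the members with GAGGAAGT in the window, Ctsc and Ctss rose, and Gla and Gusb did not pass. Over the 43 members 10 rose, and over all genes tested 3.32% did. Ctsh and Asah1, which rose, had no promoter window and could not be placed. With 4 members for each motif, nothing is read from these calls.

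Over the 10 genes that rose, BKO 2 was the highest BKO library for 5 genes and BKO 1 for 4, while BKO 3 and BKO 5 were each the lowest for 4. In ctrl, ctrl 4 was highest for 5 of the 10 and ctrl 2 lowest for 6. With Ttr above 1000 FPKM as a term in the fit, 10 members rose and none fell. Fitted on the 4 libraries of low Ttr alone, 2 members rose (Lyz2 and Cd63), where 0.987% of all genes did. In the 6 libraries of high Ttr, 6 members rose, where 1.52% of all genes did. The members were called on these same libraries, so neither count is independent of the first. All ways of dividing the libraries by Ttr were chosen after the data were seen.

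Of 7 members listed as enriched in brain myeloid cells (Ctsc, Ctsh, Ctss, Ctsz, Lyz2, Cd68 and Laptm5), 6 rose, with a median log2 difference of 0.38 over the 7. Of the 36 others, 4 rose, with a median of 0.05. The list was written with earlier results of these data known and is not complete. Lgmn (-0.01) and Grn (0.15), which microglia also express and which did not pass, were counted among the 36 others. No test of the difference between the 7 and the 36 was made, and nothing is read from these counts. The 15 microglial markers, among them P2ry12, Tmem119, Cx3cr1 and Csf1r, had no gene that rose or fell and a median difference of 0.07, and none of them was at 0 in any library. Of the 15, 12 had a positive difference, and 4 had an unadjusted limma p under 0.05. These were Aif1 (0.35), Trem2 (0.23) and Sall1 (0.18), higher in BKO, and P2ry12 (-0.16), lower in BKO. Aif1, Trem2 and Sall1 were named after their values were seen. The summed level of the 15 was 297 to 355 FPKM in ctrl and 323 to 372 FPKM in BKO, so the groups overlapped.

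As a percentage of that summed level, Lyz2 was 4.78 to 5.55% in ctrl and 7.17 to 9.42% in BKO. Ctsc was 1.26 to 1.88% against 2.01 to 2.19%, and Ctsh was 2.46 to 3.19% against 3.27 to 4.04%. Ctsz was 14.3 to 15% against 16.3 to 18.6%, and Ctss was 22.7 to 26.6% against 27.6 to 31.8%. For these 5 genes the groups did not overlap after the division, where 1.86% of all genes tested had every BKO library above every ctrl library on the same scale. Ctsc, Ctsh, Ctsz and Lyz2 did not overlap before it either, and all 5 were known to be higher when listed, so nothing is read from that share. Cd68 and Laptm5 overlapped, and for Laptm5 the ratio of the group means was 0.983.

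**Figure D3:**
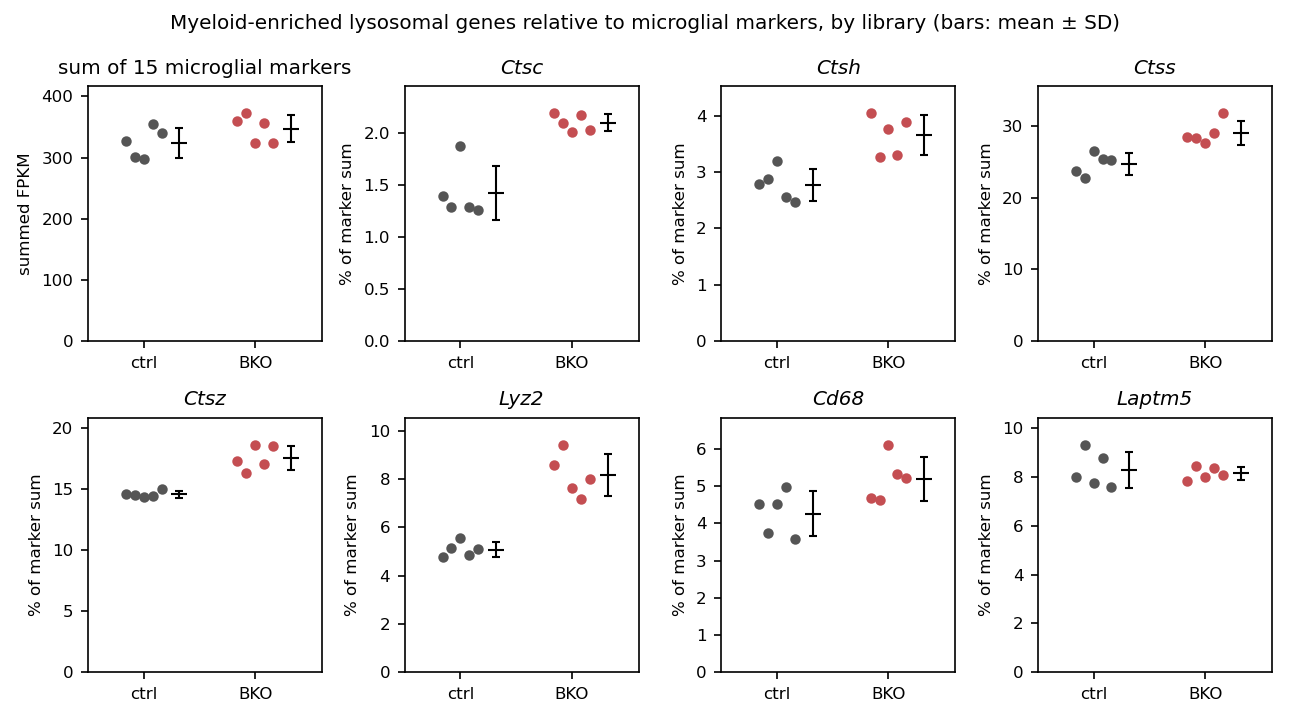
Summed FPKM of 15 microglial markers in each library (first panel) and the FPKM of 7 myeloid-enriched lysosomal genes as a percentage of that sum (other panels), with mean ± SD (n = 5) beside each group. The marker sums overlap between ctrl and BKO, while the percentages of Ctsc, Ctsh, Ctss, Ctsz and Lyz2 do not.

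Markers of other cells were read beside these genes, and those of oligodendrocytes, the myelin-forming cells, shifted most. All 9 oligodendrocyte markers summed here fell, with a median log2 difference of -1.43, and their summed level was 2276 to 2765 FPKM in ctrl and 787 to 1052 FPKM in BKO, without overlap. Of 8 neuronal markers 1 fell, the synaptic gene Snap25, by 0.18 (limma adjusted p = 0.0379), and their summed level was 4258 to 4715 FPKM in ctrl and 3957 to 4367 FPKM in BKO. The 5 markers of border macrophages summed to 3.70 to 5.99 FPKM in ctrl and 3.58 to 7.06 FPKM in BKO. Of 5 endothelial markers none rose or fell, but all 5 had a positive difference (median 0.16) and 2 had an unadjusted limma p under 0.05. The endothelial markers summed to 63.4 to 79.8 FPKM in ctrl and 61.9 to 95.2 FPKM in BKO. The 6 markers of neutrophils and monocytes summed to 4.05 to 16.7 FPKM in ctrl and 3.03 to 53.2 FPKM in BKO, with the highest sum in BKO 2, where Lyz2 was also highest, and with S100a8, Ly6c2, Ccr2, Ngp and Plac8 at 0 in at least 1 library. The call on Lyz2 held without BKO 2, as it did without each other library. Astrocyte markers rose in part, 4 of 8, and their summed level was 1887 to 2085 FPKM in ctrl and 2274 to 2509 FPKM in BKO, without overlap. Most of that gap was Gfap, at 76.84 to 92.37 FPKM in ctrl and 360.79 to 522.59 FPKM in BKO (log2 difference 2.33). The other risers were Aqp4 (0.64), Aldh1l1 (0.51) and Slc1a3 (0.19), while S100b (-0.11) and Aldoc (-0.03) had negative differences. These astrocyte genes were named after their values were seen. The part of these shifts in cell-type markers in the rises of the 10 members was not tested.

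Genes related to the lysosome, some of whose products act elsewhere in the cell or are secreted, were read as 6 further lists. Their medians lay between -0.26 and 0.04. Of 18 tested subunits and accessory proteins of the V-ATPase, the proton pump that acidifies the lumen, 1 rose and none fell (median -0.03). It was Atp6v1g1, by 0.21 (SE 0.0552, limma adjusted p = 0.0358), a call that held on leaving out ctrl 3, ctrl 5 or BKO 2 but no other single library (limma adjusted p = 0.0592 to 0.0953). Of 12 genes that sort enzymes to the lysosome, such as the mannose 6-phosphate receptors Igf2r and M6pr, none rose or fell (limma, 1 with an unadjusted p under 0.05). Among 15 tested genes of the TFEB and mTORC1 machinery at the lysosomal surface, none passed either (limma, 3 with an unadjusted p under 0.05).

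Of 27 other tested genes, mostly lysosomal hydrolases, 4 rose and 2 fell (median 0.03). The share rising was 14.8%, against 3.32% over all genes tested, of which 2.46% fell. Arsg, a sulfatase acting on heparan sulfate, stood at 12.69, 13.28, 12.21, 14.20 and 16.70 FPKM in ctrl libraries 1 to 5 and at 7.78, 7.22, 5.35, 5.62 and 7.02 FPKM in BKO libraries 1 to 5. Every BKO library was below every ctrl library, and it fell by 1.02 (SE 0.111, limma adjusted p = 3.02e-05), a larger change than that of any of the 43. Naaa, which cleaves N-acylethanolamines, fell by 0.31 (SE 0.0652, limma adjusted p = 0.00964). Rnaset2a, a lysosomal ribonuclease, rose by 0.52 (SE 0.0833, limma adjusted p = 0.000964), and its near-identical copy Rnaset2b did not pass (0.22, limma adjusted p = 0.469), so how reads were divided between them is uncertain. Creg1, a lysosomal glycoprotein, rose by 0.25 (limma adjusted p = 0.0183), a call lost without ctrl 3 (limma adjusted p = 0.0542).

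The other risers, named after their values were seen, were Scpep1 and Dnase2a, a carboxypeptidase and a DNase. Scpep1 rose by 0.28 (limma adjusted p = 0.0238), which held on leaving out ctrl 2, ctrl 4, BKO 1 or BKO 5 but no other single library (limma adjusted p = 0.0503 to 0.0657). Dnase2a rose by 0.57 (limma adjusted p = 0.0418), which held on leaving out ctrl 4, ctrl 5 or BKO 5 but no other single library (limma adjusted p = 0.0533 to 0.109). The number of genes of this list that rose was therefore 2 without ctrl 1, BKO 2, BKO 3 or BKO 4 and 1 without ctrl 3.

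Of 24 other membrane and transport proteins, 1 rose (4.17%, against 3.32% of all genes tested) and none fell (median 0.00). It was Npc2, which hands cholesterol to Npc1 in the lumen, at 78.86, 71.77, 82.32, 85.82 and 95.71 FPKM in ctrl libraries 1 to 5 and at 110.90, 108.20, 107.12, 101.32 and 105.87 FPKM in BKO libraries 1 to 5. Its groups did not overlap, and it rose by 0.37 (SE 0.0631, limma adjusted p = 0.00183), whereas Npc1 had a difference of -0.08 (limma adjusted p = 0.520). Without BKO 1, 1 gene of this list fell, namely Lamp5, a neuronal relative of Lamp1 named after its values were seen (limma adjusted p = 0.102 with all libraries and 0.0323 without BKO 1).

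Cystatins are inhibitors of cysteine cathepsins. Cst3, the abundant secreted cystatin C, stood at 2387.71, 2392.93, 2282.43, 2460.52 and 2897.87 FPKM in ctrl libraries 1 to 5 and at 2128.12, 1918.80, 1737.70, 2121.62 and 2159.65 FPKM in BKO libraries 1 to 5. All BKO libraries lay below all ctrl libraries, and it fell by 0.30 (SE 0.0731, limma adjusted p = 0.0228), a call lost without BKO 3 (limma adjusted p = 0.0572). Cst6 and Cstb did not pass. Cst7, which inhibits cathepsin C among others and was named after its values were seen, lay under the filter and was not tested with the rest. It stood at 0.00, 0.37, 0.47, 0.15 and 0.27 FPKM in ctrl libraries 1 to 5 and at 0.00, 1.93, 2.19, 2.67 and 1.43 FPKM in BKO libraries 1 to 5, above every ctrl library in 4 of 5 BKO libraries. Without the filter its difference was 1.31 (limma adjusted p = 0.143). Within the 4 libraries of low Ttr, where the filter needed 2 libraries, it was 1.96 (limma adjusted p = 0.0146). There Cst7 met the filter only through BKO 3 and BKO 4, the group where it was high, and BKO 1 was left out. Nothing is read from its passing in that set.

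**Figure D4:**
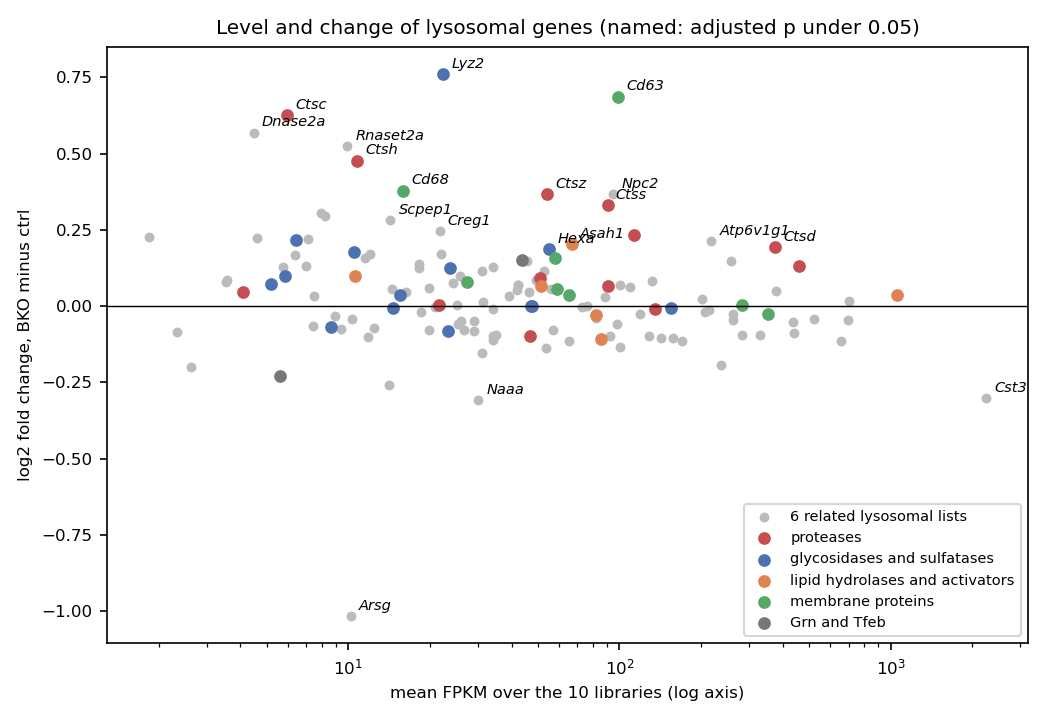
Mean FPKM over the 10 libraries (log axis) against the log2 fold change, BKO minus ctrl, for the 43 lysosomal genes by class (coloured) and the tested genes of 6 lists of lysosome-related genes (grey), with names for adjusted p under 0.05. The most abundant member, Psap, lies at 0.04, and Arsg, of a related list, lies lowest at -1.02.

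Levels of the members spanned 4.08 FPKM for Ctsk to 1056 FPKM for Psap, averaged over the 10 libraries and per length of transcript. Psap was followed by Ctsb at 459, Ctsd at 374, Lamp1 at 354 and Laptm4a at 284 FPKM, and of these 5 only Ctsd rose. Within a library, Psap lay above Ctsb, Ctsb above Ctsd, and Lamp1 above Laptm4a in 10 of 10 libraries. Ctsd lay above Lamp1 in 7 of 10, namely every BKO library, ctrl 1 and ctrl 5, and the levels of this pair overlapped. Variation between libraries of a group was 1.16 to 28.7% (coefficient of variation), with medians over members of 5.78% in ctrl and 6.73% in BKO, and it was highest for Tfeb in BKO. For the 33 members that did not pass, 26 of the 95% intervals of the log2 difference included 0, and 23 lay within 0.25 of 0 on both sides. Those of Ctsb, Ctsl, Naglu, Man2b1, Lamp2 and Grn lay above 0 and that of Smpd1 below. In the GENCODE M21 annotation of GRCm38, exons of Ctsa, Ctsb, Ctsz, Hexa, Ppt1, Lamp1 and Grn overlap those of protein-coding genes on the other strand and those of Ctsd and Glb1 overlap a protein-coding gene on the same strand. The strand setting of the counts is not given in the sources used here, so reads of such partners cannot be told apart. Nelfcd, the partner of Ctsz, averaged 29.8 FPKM, and Tmem202, that of Hexa, 1.95 FPKM. Cap1, the partner of Ppt1, averaged 194.68 FPKM and Fam171a2, that of Grn, 60.0 FPKM, both above the member itself (81.7 and 43.7 FPKM). Fdft1, the partner of Ctsb, averaged 100.92 FPKM, and Pltp and Neurl2, those of Ctsa, 33.7 and 10.4 FPKM. Tmppe (Glb1) and Grtp1 (Lamp1) averaged 3.58 and 3.45 FPKM. Gm49369, the partner of Ctsd, had no value.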

How the data were processed

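Total RNA of brain cortex was extracted with Trizol and sequenced from MGIEasy libraries, per the labels. The deposited table holds FPKM values computed by the authors for 22198 genes in 10 columns, 1 per library, with 0 columns of other samples. Per the submitters' processing notes STAR, HTSeq and mm39 were used, and the FPKM formula, gene lengths, filters and strand setting are not given in the sources used here. FPKM hold no depth, so no counting intervals are given and no count test was run.

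Labels gave the groups. The 14447 genes that reached 0.5 FPKM in 5 or more of the 10 libraries were fitted as log2(FPKM + 0.5) using limma (version 3.58.1, R 4.3.3, moderated variances with an intensity trend, 2-sided), with p-values adjusted by Benjamini-Hochberg over all of them. SE is limma's moderated standard error. Chchd3 was also compared by an exact permutation test in scipy 1.17.1, and figures were made with matplotlib 3.10.9 in Python 3.11.15. On simulated data of 14300 genes for BKO against ctrl, the share recovered was 24.0% for a log2 change of 0.25, 81.6% for 0.5, 93.9% for 1 and 100% for 2, with calls on 5 of 14104 unchanged genes. The simulated noise was independent between genes, with each gene's own SD, and few genes were changed. These shares hold for that setting and may differ in the real libraries, where genes can vary together.

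The members, the lists and the alternatives were chosen with earlier results of these data known. Values in every library are given for members that passed and, in each class, for the uncalled member of smallest p and the most abundant one; from each related list the called genes of smallest p are named, at most 4, and the few others named are marked as chosen after their values were seen. 1 oligodendrocyte marker is not reported here. The fit was repeated with a pseudocount of 0.1 or 1, with low genes kept or those under 2 FPKM dropped, with 3 other scalings (median of ratios, equal sum, quantile), with a replicate block and without each library, with 3 divisions by Ttr added after seeing the data. In the sets of 4 and 6 libraries the filter needed 2 and 3 libraries. Coordinates are those of the RefSeq promoter table (GRCm38.p6), another build than the authors' mm39.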

Additional observations from a re-analysis of the deposited data

Results flagged for a closer look

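Of 86 groups of 5 libraries (43 lysosomal genes in ctrl and in BKO), 4 held a library whose gap to its nearest neighbour exceeded the critical share of the group's range (Dixon's 95% value for 5 samples), where chance gives about 1 in 20 groups. Ctsd was 318.56 FPKM in ctrl 2, with the other ctrl libraries at 352.03 to 364.69 FPKM. Gusb was 7.56 FPKM in ctrl 2, against 10.33 to 10.67 FPKM. Ctss was 89.08 FPKM in BKO 3, against 102.65 to 105.19 FPKM in the other BKO libraries. Naglu was 6.48 FPKM in ctrl 5, against 5.65 to 5.80 FPKM. The rise of Ctss passed without BKO 3, while that of Ctsd did not pass without ctrl 2 (limma adjusted p = 0.114), and Gusb and Naglu did not pass with all libraries.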

How the results depend on the processing

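Ctsc, Ctsh, Ctss, Ctsz, Lyz2, Hexa and Cd63 passed under every change of pseudocount, filter or scaling, with the replicate block and without each library, and Ctsd, Asah1 and Cd68 did not. The members that rose numbered 7 to 9 with 1 library left out and none fell. Asking for an equal sum per library gave 13, with Ctsb, Ctsl and Grn added, and moved the median of all genes by 0.0207. That scaling made 65.3% of all calls higher in BKO, against 57.4%. Over all genes 375 to 512 rose and 261 to 346 fell with 1 library left out, against 480 and 356. In the 4 libraries of low Ttr, 2 members rose, and 143 genes rose and 101 fell, and in the 6 of high Ttr 6 members rose, and 221 genes rose and 172 fell, with fewer libraries by construction. No member value with a call changed direction, and 14 uncalled members changed sign under some alternative.

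Among the related lists, no V-ATPase gene rose without the filter or in either Ttr set (0), and 0 to 1 did with 1 library left out. Of the list made mostly of other hydrolases 1 to 4 rose with 1 library left out, 0 in the low and 1 in the high Ttr set, where 1 fell in each. Of the other membrane proteins 0 to 1 fell with 1 library left out, and 0 rose in the low Ttr set. Cystatins that fell numbered 0 without the filter, after quantile normalization and in both Ttr sets, and 0 to 1 with 1 library left out. In the low Ttr set 1 rose, namely Cst7, which met the filter there only through its BKO libraries. The difference of Chchd3 was 0.14 to 0.20 with 1 library left out and passed as higher in BKO without ctrl 5 or BKO 4, and after equal-sum (0.19) and quantile scaling (0.19). The cause of these shifts was not tested.

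Same-numbered ctrl and BKO libraries correlated at -0.169 to 0.0855 in their deviations from the group means. A low correlation cannot show whether the numbers pair the libraries by design. With the replicate block 8 members rose, without Ctsd and Asah1, and 415 genes rose and 287 fell. FPKM carry no depth, so the precision of low genes such as Ctsk and Tfeb is unknown.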
